A study of Mus musculus with 4 samples.

Results

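The genes described here are 10 coregulators of nuclear receptors, the coactivators Ncoa1, Ncoa2, Ncoa3, Crebbp, Ep300 and Med1, the corepressor Ncor1 with its partners Tbl1x and Tbl1xr1, and Nrip1. They were chosen by name from known function, by a rule that uses no measured value, but with earlier results of these data known. All 10 are among the 13085 genes of the deposited tables. The samples are RNA from 4 lines derived from 3T3-L1, mouse preadipocytes that can be turned into adipocytes in culture, with 1 sample per line. FLAG cells carry the empty FLAG vector and FLAG-CACUL1 cells overexpress CACUL1, a protein that interacts with nuclear receptors. The hairpin of sh-Luc cells is directed against luciferase and that of sh-CACUL1 cells against CACUL1. All 4 lines received rosiglitazone at 5 µM, a ligand of PPARγ, with IBMX at 0.5 mM, dexamethasone at 1 µg/mL and insulin at 5 µg/mL, and then insulin in serum-containing medium, and RNA was taken on day 8 of differentiation. FLAG vectors were selected with G418 and sh vectors with hygromycin B from resistant colonies. The sources used here do not say whether a line is 1 clone or a pool. Each condition is therefore 1 selected line, and an effect of CACUL1 and a difference between lines cannot be told apart.

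Nuclear receptors such as PPARγ bind DNA and change transcription through coregulators. Without ligand or on repressed genes, many of them hold NCoR complexes, in which TBL1X or TBL1XR1 and a histone deacetylase sit on a scaffold such as NCOR1. Ligand favours exchange for coactivators of the steroid receptor coactivator (SRC) family, which bring the acetyltransferases CBP and p300, while MED1 links the receptor to the Mediator complex and RNA polymerase II. In adipocytes these factors act with PPARγ, and NRIP1 restrains oxidative genes.

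The windows shown here are the promoter sequences of the members whose level was lower in FLAG-CACUL1 and higher in sh-CACUL1 than in the control, Ncoa1 and Nrip1, and of Tbl1xr1, which varied least over the 4 samples. They were selected after the values were seen, and come from RefSeq on GRCm38.p6. Each is the 250 bases before a start site, written 5′ to 3′ on the strand of the gene, with no base in an annotated exon of the same gene. Capitals mark the GC box GGGCGG on either strand, and overlapping matches run together. The windows of Ncoa1 (chr12:4477183-4477432, minus strand) and Nrip1 (chr16:76373050-76373299, minus strand) end at the start of the transcript that the deposited row names. The window of Tbl1xr1 (chr3:22076402-22076651, plus strand) ends 75 bases before that start.
Ncoa1: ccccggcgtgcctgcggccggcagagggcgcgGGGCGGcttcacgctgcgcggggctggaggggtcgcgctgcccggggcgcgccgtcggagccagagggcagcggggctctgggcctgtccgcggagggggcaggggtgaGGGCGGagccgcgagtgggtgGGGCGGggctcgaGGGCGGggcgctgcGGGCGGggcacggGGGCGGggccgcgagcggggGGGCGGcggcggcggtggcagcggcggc
Nrip1: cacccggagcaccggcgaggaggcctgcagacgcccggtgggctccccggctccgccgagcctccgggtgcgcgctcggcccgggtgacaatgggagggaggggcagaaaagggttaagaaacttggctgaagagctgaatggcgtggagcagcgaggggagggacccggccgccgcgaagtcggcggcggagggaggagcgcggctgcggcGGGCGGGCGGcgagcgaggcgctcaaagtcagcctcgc
Tbl1xr1: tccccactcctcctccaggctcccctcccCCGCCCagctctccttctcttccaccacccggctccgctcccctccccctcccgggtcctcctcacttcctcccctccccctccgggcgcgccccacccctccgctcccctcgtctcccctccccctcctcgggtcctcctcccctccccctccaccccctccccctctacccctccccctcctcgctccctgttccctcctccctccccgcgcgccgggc

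The Ncoa1 window held 7 GC boxes, the Nrip1 window shown 2 in overlap and the Tbl1xr1 window 1. The other Nrip1 window (chr16:76373828-76374077), also with no base in an exon, held no GC box and is not shown. Of the 10 symbols, 8 matched a promoter window and 8 of their 10 windows held GGGCGG, against 32.7% of all 32851 mouse windows of this length. None of the 10 held AGGTCA, the core hexamer of nuclear receptor elements, which was in 14.0% of all windows, nor CACGTG, in 6.02%. CCAAT was in 1 of the 10 and in 33.8% of all windows. The GC content of the 10 windows ran from 36.8% for an Ncor1 window to 85.6% for that of Ncoa1, with a median over all mouse windows of 52.4%, and these counts describe the letters of the windows alone. The windows of Crebbp and Ep300 lay inside annotated exons and are not shown. Those of Tbl1x and Med1 and an Ncor1 window overlapped exons in part.

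The deposited values are FPKM, fragments scaled to transcript length and to the mapped fragments of the sample, so levels of different genes can be set side by side. From the steps in low FPKM values, depth was estimated as 14300000 to 24000000 fragments, with sh-Luc the deepest. The member values rested on an estimated 158 to 2612 fragments each. Intervals below are exact 95% limits for counting error only and do not cover variation between cultures. A fold of 2 refers to the ratio of FPKM + 1, which understates the change of low values. The Cacul1 mRNA was 9.61 FPKM in FLAG against 11.8 in FLAG-CACUL1, and 10.2 in sh-Luc against 5.39 in sh-CACUL1, a log2 change of 0.27 and -0.82. It was thus lower in the knockdown line and slightly higher in the overexpressing line, and an added cDNA need not appear in full in a row of annotated transcripts.

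The samples differed widely in adipocyte markers. Summed over the 7 of 8 markers in the files, FPKM was 7381 in FLAG against 900.4 in FLAG-CACUL1, and 1714 in sh-Luc against 16621 in sh-CACUL1. Each of the 7 passed 2-fold in both comparisons, downward with FLAG-CACUL1 and upward with sh-CACUL1. The 8 preadipocyte and fibroblast markers summed to 4942, 7164, 3827 and 755.6 FPKM in the same order, and most of each sum came from Col1a1 and Col3a1. In FLAG-CACUL1 7 of them were higher than in FLAG and 1, Dlk1, was lower. In sh-CACUL1 6 were lower than in sh-Luc and 2, Dlk1 and Thy1, were higher. The label names the cells as preadipocytes, but markers of both kinds were present in all 4 samples. Below 1 FPKM were Gata2 in FLAG, FLAG-CACUL1 and sh-CACUL1, and Cebpa in sh-Luc. In sh-Luc Dlk1 and Thy1 were also below 1 FPKM, at 0.220 and 0.663, although the other samples had at least 21.2 and 34.3. Of the macrophage markers 3 of 5 were in the files, with sums from 2.91 to 68.3 FPKM, and of the endothelial markers 1 of 4, with at most 0.301 FPKM. Fewer adipocytes and less of an adipocyte's RNA per cell cannot be told apart in these bulk samples. The part of this marker difference in the coregulator values was not tested.

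All 10 coregulators were expressed in all 4 lines, from 2.44 FPKM for Nrip1 in FLAG-CACUL1 to 29.2 FPKM for Tbl1x in FLAG, and their levels exceeded those of 28.5% to 81.8% of all genes of the sample. Tbl1x and Ncor1 were the highest pair in every sample. Below them the order changed between lines, so that Nrip1 ranked 5 of 10 in FLAG, sh-Luc and sh-CACUL1 but 10 in FLAG-CACUL1. Ep300 ranked 8 in FLAG and sh-CACUL1 but 3 in FLAG-CACUL1 and 4 in sh-Luc. The level was highest in sh-Luc for 7 of the 10, in FLAG for Ncoa1 and Tbl1x and in sh-CACUL1 for Nrip1. The median FPKM over all genes was also highest in sh-Luc, at 8.28, against 6.73 in FLAG, 7.32 in FLAG-CACUL1 and 5.68 in sh-CACUL1. Nrip1 spanned the widest range, 4.06-fold from its lowest to its highest sample, and Tbl1xr1 the narrowest, 1.17-fold.

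**Figure D1:**
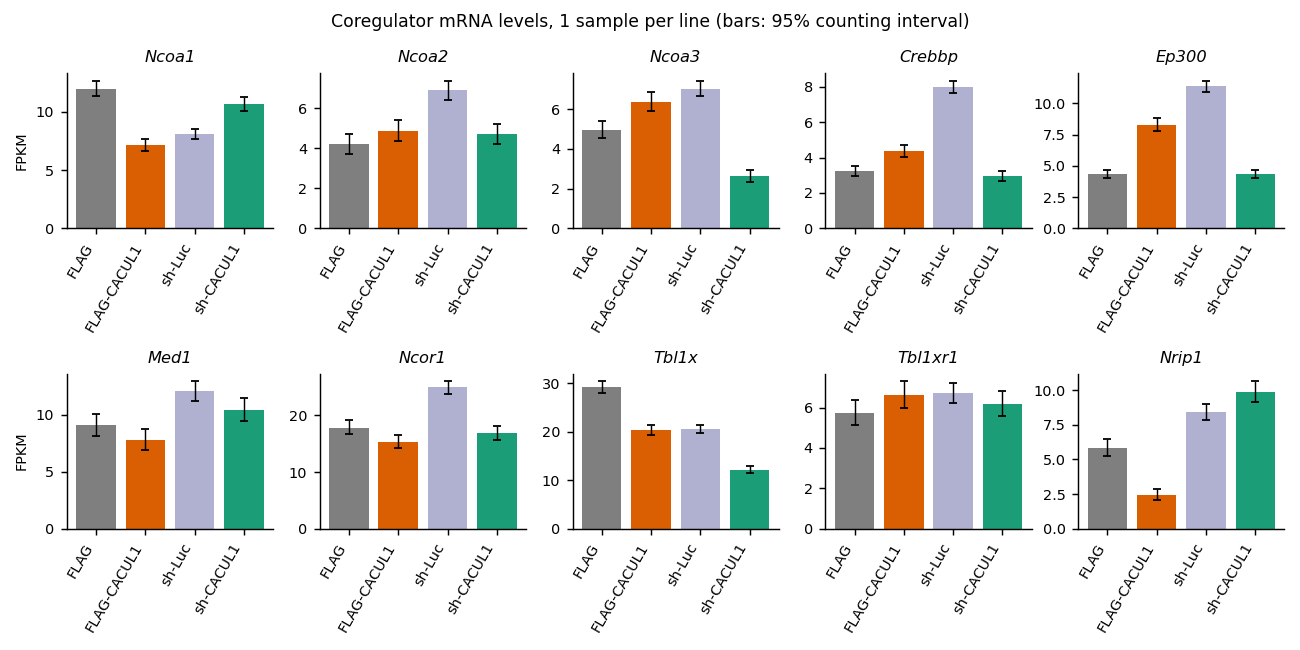
Bars are the FPKM of each coregulator (linear axis from 0, own scale per gene) in the 4 lines, 1 sample each, and lines are 95% counting intervals. The sh-Luc bar is the highest for 7 of the 10 genes, and sh-Luc also has the highest median FPKM of all genes. Ncoa1 and Nrip1 are lowest in FLAG-CACUL1.

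With FLAG-CACUL1, 0 of the 10 coregulators passed 2-fold, where 14.7% of all genes did. Of the 10, 5 were higher and 5 lower, and their median log2 change was -0.01, against 0.09 for all genes and 0.13 for the 9563 genes that reached 1 FPKM in every sample. The largest decrease was that of Nrip1, whose log2 change of -0.99 lay just inside the threshold. The largest increase was that of Ep300, at 0.80. With sh-CACUL1, 3 of the 10 passed 2-fold, where 21.3% of all genes did. All 3, Ep300, Crebbp and Ncoa3, were lower, and 16.4% of all genes were at least 2-fold lower. In sh-CACUL1 8 were lower and 2 higher. The median log2 change of the 10 was -0.50, but that of all genes was also below 0, at -0.30, and that of the 9563 genes at -0.43. Relative to this -0.43, 6 of the 10 were lower and 4 higher, and by it none of the 3 kept a 2-fold decrease.

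The SRC family members did not move as a group. Ncoa1, the SRC family member first found with the progesterone receptor, was 12.0 FPKM in FLAG against 7.14 in FLAG-CACUL1, and 8.11 in sh-Luc against 10.7 in sh-CACUL1. It was thus low in FLAG-CACUL1 and sh-Luc and high in the other pair. The FPKM ratio was 0.595 (0.543 to 0.652) in FLAG-CACUL1 against FLAG and 1.32 (1.22 to 1.42) in sh-CACUL1 against sh-Luc. The log2 changes were -0.68 and 0.36, and relative to the median of the 9563 genes -0.81 and 0.79.

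Ncoa2, which serves the glucocorticoid receptor and PPARγ, was 4.19, 4.86, 6.89 and 4.70 FPKM in the order FLAG, FLAG-CACUL1, sh-Luc, sh-CACUL1. Only sh-Luc stood apart in the deposited FPKM, before any further scaling between samples. The interval of the FLAG-CACUL1 to FLAG ratio, 0.989 to 1.36, included 1. In sh-CACUL1 the log2 change was -0.47, or -0.04 relative to the median of the 9563 genes, and its sign turned with quantile normalization and with centring on the length class.

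Ncoa3, an SRC family member also known as an oncogene of breast cancer, was 4.95, 6.37, 7.05 and 2.61 FPKM in the same order. The sh-CACUL1 sample was the lowest of the 4 and the other 3 lay closer together. In sh-CACUL1 the ratio to sh-Luc was 0.371 (0.325 to 0.421), a log2 change of -1.16. In FLAG-CACUL1 the log2 change was 0.31, so the direction was opposite to that of Ncoa1 in each comparison.

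The acetyltransferases Crebbp (CBP) and Ep300 (p300), which acetylate histones and transcription factors at enhancers, had like patterns. Crebbp was 3.22 FPKM in FLAG against 4.37 in FLAG-CACUL1, and 8.00 in sh-Luc against 2.96 in sh-CACUL1. Ep300 was 4.32, 8.29, 11.4 and 4.34 FPKM in the same order. Both were low in FLAG and sh-CACUL1, the samples with the highest adipocyte marker sums, and highest in sh-Luc. The order did not follow the marker sums throughout, as FLAG-CACUL1 had the lowest sum but less of both than sh-Luc. In sh-CACUL1 the ratio to sh-Luc was 0.370 (0.334 to 0.409) for Crebbp and 0.382 (0.350 to 0.417) for Ep300. In FLAG-CACUL1 the ratio to FLAG was 1.36 (1.21 to 1.53) for Crebbp and 1.92 (1.74 to 2.12) for Ep300. The log2 changes were -1.19 and -1.21 in sh-CACUL1 and 0.35 and 0.80 in FLAG-CACUL1. The 2 control lines themselves differed, with FLAG below sh-Luc by a log2 difference of -1.09 for Crebbp and -1.22 for Ep300. When sh-CACUL1 was set against FLAG instead of sh-Luc, Ep300 had a log2 change of 0.01.

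Med1, the Mediator subunit that binds nuclear receptors, was 9.07, 7.79, 12.1 and 10.4 FPKM in the order FLAG, FLAG-CACUL1, sh-Luc, sh-CACUL1. Each CACUL1 line was slightly below its control, with log2 changes of -0.20 and -0.19. The counting interval of the ratio included 1 for FLAG-CACUL1 (0.733 to 1.01) and not for sh-CACUL1 (0.765 to 0.976), and the latter change was above 0 with each scaling and centring tried.

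Ncor1, the scaffold that recruits HDAC3 to unliganded receptors, was 17.9, 15.3, 25.0 and 16.9 FPKM in the same order. Here too sh-Luc was the high sample and the other 3 lay close together in the deposited FPKM, before any further scaling between samples. With FLAG-CACUL1 the log2 change was -0.21 and with sh-CACUL1 -0.54, and the latter turned above 0 when centred on its length class, at 0.10. Its row covers 3 transcripts of very different length, so its level relative to other genes is less sure than that of the 7 members with 1 transcript.

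The paralogous exchange factors Tbl1x and Tbl1xr1, WD40 proteins of the NCoR complex, differed from each other. Tbl1x was 29.2 FPKM in FLAG against 20.2 in FLAG-CACUL1, and 20.6 in sh-Luc against 12.2 in sh-CACUL1. It was lower in each CACUL1 line than in its control, with log2 changes of -0.51 and -0.71. Tbl1xr1 was 5.73, 6.64, 6.71 and 6.16 FPKM, with log2 changes of 0.18 and -0.11, and the latter turned above 0 with each scaling and centring tried. The counting interval of its ratio in sh-CACUL1, 0.809 to 1.04, included 1.

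Nrip1, a ligand-dependent corepressor of many receptors, was 5.85 FPKM in FLAG against 2.44 in FLAG-CACUL1, and 8.41 in sh-Luc against 9.90 in sh-CACUL1. The FLAG-CACUL1 sample stood below the other 3, and both sh lines were above both FLAG lines. The ratio was 0.417 (0.344 to 0.503) in FLAG-CACUL1 and 1.18 (1.06 to 1.30) in sh-CACUL1, with log2 changes of -0.99 and 0.21. As its FPKM is low, the pseudocount kept the first just short of 2-fold, and without it Nrip1 passed.

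Between the comparisons, which share no sample, 2 coregulators were lower in FLAG-CACUL1 and higher in sh-CACUL1 (Ncoa1 and Nrip1), 5 were higher and then lower (Crebbp, Ep300, Ncoa2, Ncoa3 and Tbl1xr1) and 3 were lower in both (Med1, Ncor1 and Tbl1x). With every scaling and centring tried, Ncoa1, Nrip1, Crebbp, Ep300, Ncoa3 and Tbl1x kept these directions, whereas Med1, Ncoa2, Ncor1 and Tbl1xr1 turned in sh-CACUL1 with at least 1 of them. How many of all genes fell in each class was not counted. The class of 5 had the directions of the median log2 change over the 9563 genes. That median was positive with FLAG-CACUL1, at 0.13, and negative with sh-CACUL1, at -0.43.

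**Figure D2:**
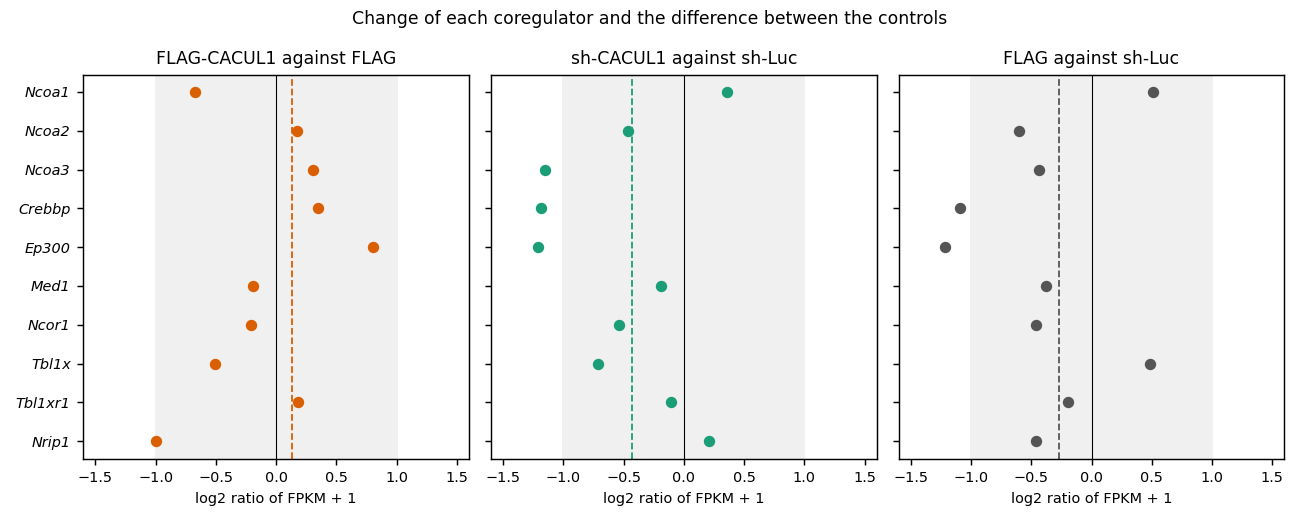
Points are log2 ratios of FPKM + 1 for each coregulator in FLAG-CACUL1 against FLAG, sh-CACUL1 against sh-Luc, and FLAG against sh-Luc, 1 sample each. Grey marks less than 2-fold and dashed lines the median of 9563 genes (0.13, -0.43 and -0.27). Crebbp, Ep300 and Ncoa3 pass 2-fold in sh-CACUL1, and Crebbp and Ep300 also differ 2-fold between the controls.

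FLAG was at least 2-fold below sh-Luc for 2 of the 10, Crebbp and Ep300, where 12.4% of all genes were at least 2-fold lower and 21.0% differed 2-fold in either direction. The size of the difference between controls exceeded that of the FLAG-CACUL1 change for 7 of the 10 and that of the sh-CACUL1 change for 6 of the 10. In sh-CACUL1 the 4 exceptions were Crebbp, Ncoa3, Ncor1 and Tbl1x, and in FLAG-CACUL1 the 3 were Ncoa1, Nrip1 and Tbl1x. The same count was not made over all genes, so no share of all genes stands beside it. Among all genes 14.7% passed 2-fold in FLAG-CACUL1 and 21.3% in sh-CACUL1, beside the 21.0% between controls. With the other control, 5 members changed direction in each comparison. For FLAG-CACUL1 against sh-Luc these were Crebbp, Ep300, Ncoa2, Ncoa3 and Tbl1xr1, and for sh-CACUL1 against FLAG they were Ep300, Med1, Ncoa1, Ncoa2 and Tbl1xr1. Changes of direction were not counted over all genes either. The median of the 9563 genes went from 0.13 to -0.15 in FLAG-CACUL1 and from -0.43 to -0.14 in sh-CACUL1 with the other control.

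Most coregulators have long transcripts, over 6 kb for 7 of the 10 and 4 to 6 kb for Nrip1, Tbl1x and Tbl1xr1. In sh-CACUL1 the longer classes lay lower among all genes, with a median log2 change of -0.22 for 2646 genes of up to 2 kb, -0.44 for 3801 of 2 to 4 kb, -0.54 for 1912 of 4 to 6 kb and -0.64 for 1132 over 6 kb. The share at least 2-fold lower was 12.1%, 18.8%, 22.2% and 26.2% in the same order. In FLAG-CACUL1 the class medians were 0.12, 0.13, 0.16 and 0.09, without such an order. Between the controls, FLAG against sh-Luc, they were -0.16, -0.29, -0.31 and -0.30, so the shortest class was the least low there too. Relative to their own class in sh-CACUL1, Crebbp, Ep300 and Ncoa3 were at -0.55, -0.57 and -0.52 and no longer past 2-fold, while Ncoa1 and Nrip1 were at 1.00 and 0.75. The part of transcript length in the decreases of these coregulators was not tested.

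**Figure D3:**
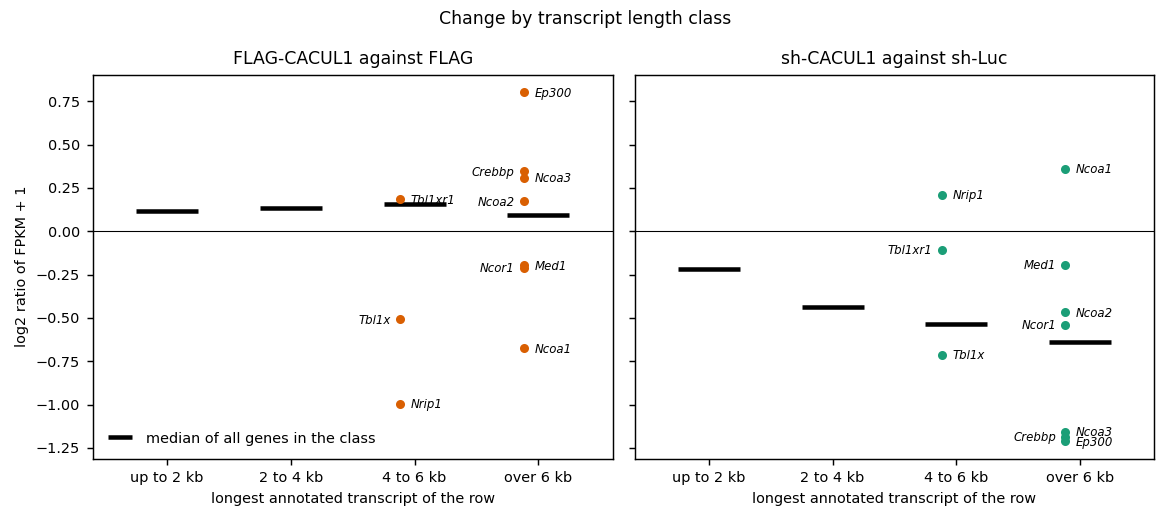
Coloured points are the log2 ratios of FPKM + 1 of the 10 coregulators and black bars the medians of all genes of 1 FPKM or more in the 4 transcript length classes. In sh-CACUL1 the medians go from -0.22 to -0.64 with length, and Ncoa1 and Nrip1 lie above their classes while Crebbp, Ep300 and Ncoa3 lie below.

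Ratios between coregulators of 1 sample do not depend on scaling between samples. The ratio of Ncoa1 to Ncoa3 was 2.43 in FLAG against 1.12 in FLAG-CACUL1, and 1.15 in sh-Luc against 4.09 in sh-CACUL1. Nrip1 relative to the scaffold Ncor1 was 0.328, 0.159, 0.337 and 0.587. Ep300 relative to Ncor1 ran the other way, at 0.242, 0.541, 0.455 and 0.258, and Crebbp relative to Ncor1 was 0.180, 0.285, 0.321 and 0.176. The first ratio was thus high where adipocyte markers were high, and the acetyltransferase ratios were low there. Crebbp to Ep300 was 0.745, 0.527, 0.704 and 0.682, and Med1 to Ncor1 was 0.508, 0.509, 0.484 and 0.620. Tbl1x to Tbl1xr1 was 5.09, 3.05, 3.07 and 1.98, lower in each CACUL1 line than in its control.

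**Figure D4:**
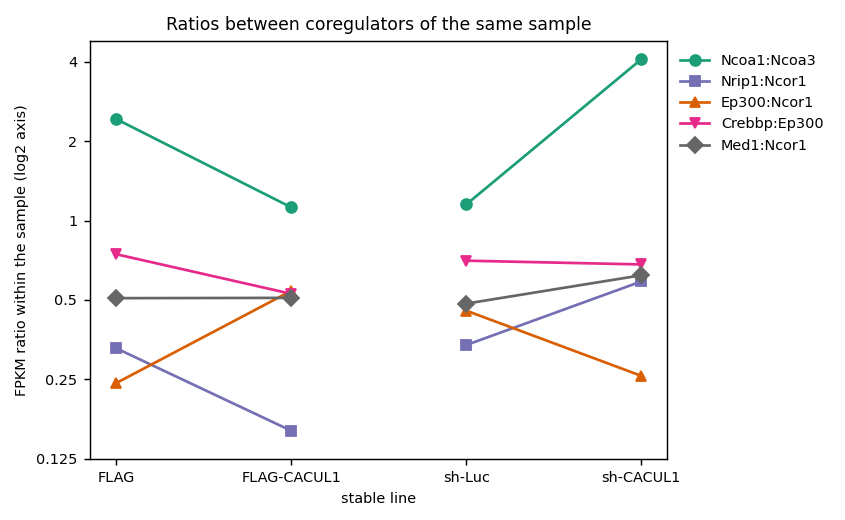
Points are FPKM ratios within a sample (log2 axis) for 5 pairs of coregulators in the 4 lines, joined within each comparison. Ncoa1:Ncoa3 and Nrip1:Ncor1 are lower in FLAG-CACUL1 and higher in sh-CACUL1 than in the control, Ep300:Ncor1 is the reverse, and Med1:Ncor1 stays between 0.484 and 0.620.

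Over all genes, 7.51% were at least 2-fold higher and 7.22% at least 2-fold lower in FLAG-CACUL1, and 4.94% higher and 16.4% lower in sh-CACUL1, and the counts of the next 4 lists stand beside these shares. Of 14 other genes of NCoR and corepressor complexes, 2 were at least 2-fold higher and 0 lower in FLAG-CACUL1, Ctbp1 (30.9 to 67.4 FPKM), a corepressor that binds NAD, and the deacetylase Sirt1 (0.602 to 2.24 FPKM). In sh-CACUL1 0 were higher and 4 lower, Rcor1 (12.0 to 4.21 FPKM), a partner of KDM1A, Gps2 (21.4 to 8.96 FPKM), an NCoR subunit, the deacetylase Hdac2 (64.1 to 29.9 FPKM) and Ctbp1 (75.0 to 36.9 FPKM). The list had a median log2 change of 0.17 with FLAG-CACUL1 and of -0.75 with sh-CACUL1, and none of the 4 passed 2-fold with quantile normalization or median-of-ratios scaling. In FLAG-CACUL1 Ctbp1 passed with quantile normalization and neither gene with median-of-ratios scaling. The controls also differed, with a log2 difference of FLAG from sh-Luc of -1.25 for Ctbp1 and -1.21 for Sirt1. For Hdac2, Gps2 and Rcor1 that difference was -1.38, -1.03 and -0.10. The demethylase Kdm1a was 19.4, 17.1, 18.9 and 13.2 FPKM in the order FLAG, FLAG-CACUL1, sh-Luc, sh-CACUL1, and Sirt1 in the sh lines was 2.69 and 1.35 FPKM.

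Of 31 other Mediator subunits, 0 passed 2-fold in FLAG-CACUL1, and 0 were higher and 6 lower in sh-CACUL1, where 16.4% of all genes were lower, a median log2 change of 0.14 and -0.50. The 6 were Med13l, Med16, Med10, Cdk19, Med23 and Med15, with log2 changes from -1.40 to -1.06, and none was 2-fold lower with quantile normalization or median-of-ratios scaling. The other 25 of the 31 stayed below 2-fold in both comparisons, as did Med1. With quantile normalization and with median-of-ratios scaling Med22 was 2-fold higher in sh-CACUL1, and the median log2 change of the list was -0.04 and -0.09. Between the controls, the log2 difference of FLAG from sh-Luc for the 6 ran from -1.01 (Med23) to -0.59 (Cdk19).

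Of 21 other coactivators in the files, from a list of 23, 2 were 2-fold higher in FLAG-CACUL1, Pprc1 (3.64 to 11.9 FPKM) and Ncoa5 (5.24 to 11.8 FPKM). The 2 that were lower were Ppargc1b (6.11 to 0.653 FPKM), a coactivator of mitochondrial genes, and Tacc1 (16.1 to 6.16 FPKM). In sh-CACUL1 the acetyltransferase Kat2b was higher (10.3 to 23.5 FPKM), and Prmt2, a protein arginine methyltransferase (20.8 to 6.87 FPKM), and Pprc1 (14.7 to 6.40 FPKM) were lower. Over the list the median log2 change came to 0.37 with FLAG-CACUL1 and to -0.55 with sh-CACUL1, which became -0.10 with quantile normalization. Ncoa5 in FLAG-CACUL1 and Pprc1 in sh-CACUL1 no longer passed 2-fold with quantile normalization or with median-of-ratios scaling.

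Several of the receptors that these coregulators serve changed by more than 2-fold. Of 14 nuclear receptors in the files, from a list of 16, 2 were 2-fold higher in FLAG-CACUL1, Nr2f2 (COUP-TFII) and Vdr, and 2 lower, Pparg and Nr1h3 (LXRα). In sh-CACUL1 4 were higher, Nr1h3, Pparg, Rxra and Esrra, and 4 lower, Rarg, Vdr, Nr2f2 and Thra. Pparg was 70.1, 12.3, 14.8 and 61.8 FPKM in the order FLAG, FLAG-CACUL1, sh-Luc, sh-CACUL1, a log2 change of -2.42 and 2.00, and its partner Rxra was 29.7, 42.5, 35.0 and 79.9 FPKM. Per kilobase, Pparg was thus above Ncor1 in FLAG and sh-CACUL1 and below it in FLAG-CACUL1 and sh-Luc. The coregulators with the largest change, Nrip1 at -0.99 in FLAG-CACUL1 and Ep300 at -1.21 in sh-CACUL1, thus changed by less than Pparg did. However, the controls also differed in Pparg, by a log2 difference of FLAG from sh-Luc of 2.17, above its sh-CACUL1 change. That difference was 2.93 for Nr1h3, -2.01 for Vdr and -1.38 for Nr2f2. For Rxra, Esrra, Rarg and Thra it was -0.23, 0.70, 0.27 and -0.85. With quantile normalization Vdr no longer passed in FLAG-CACUL1 nor Nr2f2 in sh-CACUL1, and the list's median log2 change in sh-CACUL1 turned from -0.09 to 0.24. With median-of-ratios scaling Vdr in FLAG-CACUL1 and Nr2f2 and Thra in sh-CACUL1 no longer passed, Ppard and Rara were also 2-fold lower in FLAG-CACUL1, and that median was 0.25.

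**Figure D5:**
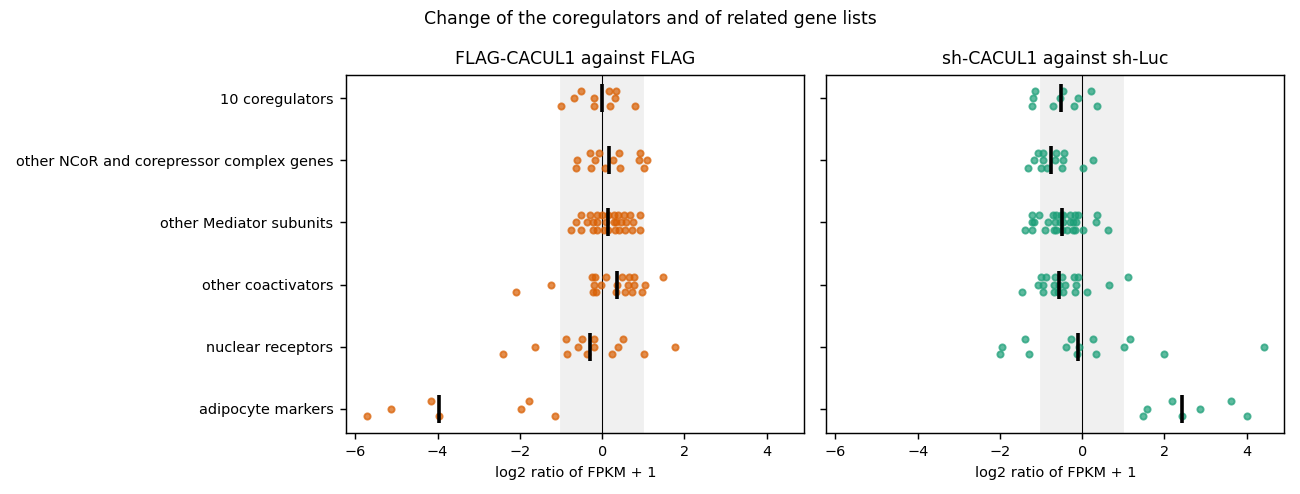
Points are log2 ratios of FPKM + 1 of single genes, black ticks the list medians, and grey marks less than 2-fold. The 10 coregulators lie between -0.99 and 0.80 in FLAG-CACUL1 and between -1.21 and 0.36 in sh-CACUL1, while the 7 adipocyte markers lie beyond 2-fold, lower in FLAG-CACUL1 and higher in sh-CACUL1.

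The genes whose profile over the 4 samples was most like the median profile of the coregulators were sought among 7795 genes with a mean of at least 5 FPKM. They were Cct5, Vps4a, Uxs1, Cebpz and Naa25, with root mean square differences of 0.0522 to 0.0574 in log2(FPKM + 1) over 4 samples. Like that median profile, each was highest in sh-Luc and differed little between the other 3 samples. Reads shared with other genes touched the coregulators little. The highest share of 31-base stretches in common with another gene was 2.82%, for Ncor1. Annotated exons of other genes covered at most 2.04% of exon bases, for Ncoa3 where its exons overlap Sulf2 on the opposite strand.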

How the data were processed

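The data are RNA-seq values of 4 lines made from 3T3-L1, taken on differentiation day 8 with 1 sample each. The authors deposited FPKM for 13110 rows of RefSeq transcripts per sample. The submitters' processing notes name the build mm10, and the aligner and the program that computed FPKM are not given in the sources used here. GENCODE M21 (GRCm38) gave the symbols for all but 191 rows, and rows of 1 symbol were summed to 13085 genes. With 1 sample per group no test was made. Changes are log2 ratios of FPKM + 1 against the control of the same vector, with a cut-off of 2-fold. Depth was estimated from the spacing of FPKM times length in single-transcript rows of 3000 bases or more. Counting intervals at 95% are exact binomial limits for ratios and exact Poisson limits for single FPKM values. For the 3 members with several transcripts the shortest length was used. Every member was named, and of other lists the genes of at least 1 FPKM that passed 2-fold, up to 6 per list, and 5 genes tied to CACUL1 in the study, of which 1 is not reported here. Members and lists were chosen with earlier results of these data known. Alternatives were other pseudocounts, scalings, centrings, controls, rows and cut-offs. The scripts were tested on simulated data. Python 3.11.15, numpy 2.4.6, scipy 1.17.1, pandas 2.3.3 and matplotlib 3.10.9 were used.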

Additional observations from a re-analysis of the deposited data

How the results depend on the processing

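Counts of coregulators past the cut-off were small and moved with the processing. In FLAG-CACUL1 the count went from 0 to 1 (Nrip1) with a pseudocount of 0.1, without one, with quantile normalization, median-of-ratios scaling, centring on all genes or on the length class, and with sh-Luc as control, and to 3 at 1.5-fold. The share of all genes past the cut-off ran from 9.9% (sh-Luc as control) to 28.8% (no pseudocount), and was 34.3% at 1.5-fold. In sh-CACUL1 the count went from 3 to 0 with quantile normalization, median-of-ratios scaling, both centrings and a 3-fold cut-off, and to 1 (Tbl1x) with FLAG as control. The share of all genes there was 17.3%, 16.9%, 17.2%, 16.2%, 7.15% and 22.9% in the same order. The median log2 change of the coregulators in FLAG-CACUL1 was -0.42 with sh-Luc as control. In sh-CACUL1 it was -0.0747 with quantile normalization, -0.0761 with median-of-ratios scaling, -0.0736 centred on all genes, 0.13 centred on the length class and -0.0371 with FLAG as control, where Ep300 turned to 0.0053. The cause was not tested, beyond the shift of all genes that the scalings remove. Among all genes in FLAG-CACUL1, 1928 passed, 3161 with a pseudocount of 0.1, 3775 without one, 4494 at 1.5-fold and 663 at 3-fold. In sh-CACUL1 2788 passed, 4799 without a pseudocount, 5809 at 1.5-fold and 936 at 3-fold. There 647 were higher and 2141 lower, against 1178 and 1084 with quantile normalization and 1231 and 975 with median-of-ratios scaling. Of the values of single coregulators under the alternatives, 92 moved by less than the counting interval and 67 by more, and 1 that had passed 2-fold, that of Ep300, changed sign. The 92 include every value under the choice of the row with the highest mean FPKM. Those could not move, because each of the 10 members has 1 row. Coregulators below 2-fold also changed sign, 5 with the other control in FLAG-CACUL1, and in sh-CACUL1 3 with quantile normalization, 2 with median-of-ratios scaling, 2 centred on all genes and 4 on the length class. Changes of sign were not counted over all genes. Scaled counts of the other lists were chosen after seeing the data. Leaving out members that share 50% of stretches gave no value, since none did. No paired analysis was possible because each group has 1 sample, so no change has a replicate check. Depth limits the counting intervals only.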
